A study of Mus musculus with 12 samples.

Results

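The Ly6 surface protein family is represented here by 6 of the 57010 genes in the deposited count matrix, chosen by symbol: Ly6a (ENSMUSG00000075602), Ly6c1 (ENSMUSG00000079018), Ly6c2 (ENSMUSG00000022584), Ly6e (ENSMUSG00000022587), Ly6g (ENSMUSG00000022582) and Ly6i (ENSMUSG00000022586). All 6 had a row, and their values were read in all 12 libraries. Of the 15425 genes with enough reads to be fitted, 4 were members (Ly6a, Ly6c2, Ly6e and Ly6i), while Ly6g and Ly6c1 had too few. The members were picked with their levels by genotype and culture already known, so those levels are described without a test.

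Bulk RNA-seq of polyA RNA was performed on preosteoclasts, the osteoclast precursors obtained when mouse bone marrow is cultured for 2 days with M-CSF and RANKL. LSD1cKO mice lack LSD1, a histone demethylase encoded by Kdm1a, in myeloid cells because a floxed allele is cut by Cre expressed from LysM (Lyz2), and LSD1WT mice were their controls. All mice were female, given as 2 months old in the labels and as 3 months old in the sequencing methods. For each genotype 2 libraries were made from each of 3 cultures: mandible of mice that had carried a ligature for 7 days, their femur, and the femur of mice with no ligature. By the labels the 12 libraries came from 9 mice, since 1 LSD1WT and 2 LSD1cKO mice were sampled at both sites.

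Ly6 proteins are small proteins held on the outer face of the plasma membrane by a glycosylphosphatidylinositol (GPI) anchor, and they share a compact disulfide-bonded fold with the urokinase receptor uPAR. In blood and marrow they are used as markers: Ly6a is Sca-1 of haematopoietic stem cells, Ly6c marks inflammatory monocytes and Ly6g marks neutrophils. Ly6a and Ly6e are also known as interferon-inducible genes.

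Total counts per library ran from 21375805 to 32526751, and a count of 0 allows up to 3 counts, or 0.0927 to 0.154 CPM (counts scaled to library size by TMM), for counting error only. Kdm1a was at 61.2 to 71.3 CPM in the 6 LSD1WT libraries and at 15.6 to 24.3 CPM in the 6 LSD1cKO libraries. Both femur LSD1WT replicate 2 libraries stood apart. Their summed level of 15 osteoclast markers was 2.05% (ligated) and 2.28% (unligated) of that of replicate 1, so the preosteoclast label was not borne out there. Values without them are therefore given beside those with them. The mandible LSD1WT pair differed by 1.58 times counting noise, against 6.61 to 153 times in the other 5 pairs, and its spread may not hold the spread between mice. One of this pair, replicate 3, carries mandible in its title and femur in its library name and was kept as mandible.

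Promoter sequence was at hand for 3 members in RefSeq (GRCm38.p6), and all 3 are shown so that their motifs can be read beside each other. Each line gives the 250 bases before the most upstream start, 5′ to 3′ on the gene's strand. Capitals mark the PU.1 core AGGAAGT (either strand), the motif of a master factor of myeloid cells.
Ly6c1, chr15:75048838-75049087, minus strand: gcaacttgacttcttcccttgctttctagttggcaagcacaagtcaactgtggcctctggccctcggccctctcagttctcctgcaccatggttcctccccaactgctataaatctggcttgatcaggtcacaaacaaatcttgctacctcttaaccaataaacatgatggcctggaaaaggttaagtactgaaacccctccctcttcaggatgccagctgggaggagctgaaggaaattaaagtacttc
Ly6c2, chr15:75111972-75112221, minus strand: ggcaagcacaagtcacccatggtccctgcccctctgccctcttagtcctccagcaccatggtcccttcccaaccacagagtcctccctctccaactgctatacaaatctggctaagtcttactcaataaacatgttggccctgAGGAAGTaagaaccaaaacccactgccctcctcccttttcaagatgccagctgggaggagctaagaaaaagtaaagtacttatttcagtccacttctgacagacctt
Ly6g, chr15:75155011-75155260, plus strand: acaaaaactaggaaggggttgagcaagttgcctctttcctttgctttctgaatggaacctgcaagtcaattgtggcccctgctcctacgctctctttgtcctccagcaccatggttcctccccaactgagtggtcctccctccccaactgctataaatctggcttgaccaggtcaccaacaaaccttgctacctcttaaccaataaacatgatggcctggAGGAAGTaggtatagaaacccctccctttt
The PU.1 core was found at -107 from the start in Ly6c2 and at -30 in Ly6g, and not in the Ly6c1 window. It occurs in 7.77% of the 27025 promoters of this length. Neither the interferon-stimulated response element core (GAAA, any 2 bases, then GAAA, either strand, in 3.05% of all promoters) nor the GAS element (TTCNNNGAA, in 7.14%) was found in the 3 windows. Among interferon response genes, 18 of the 34 with a promoter in the table held that response element core. The Ly6c1 and Ly6c2 windows were identical at 57.7% of aligned columns, Ly6c1 and Ly6g at 58.5%, and Ly6c2 and Ly6g at 42.5%. Promoters of Ly6a, Ly6e and Ly6i were not analysed here.

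Ly6e, an interferon-inducible gene known for its part in virus entry, was the most abundant member in every library. Mandibular preosteoclasts held 89.5 and 95.9 CPM in LSD1WT against 301 and 488 CPM in LSD1cKO. Ligated femur gave 163 and 292 CPM in LSD1WT against 828 and 981 CPM in LSD1cKO. Unligated femur gave 183 and 225 CPM in LSD1WT against 843 and 887 CPM in LSD1cKO. Each of the 6 LSD1cKO libraries was therefore above each of the 6 LSD1WT libraries, with the mandible lowest in both genotypes. Over the 3 cultures Ly6e was higher in LSD1cKO by a log2 fold change of 2.05 (SE 0.18), or 4.15-fold, and by 2.28 (SE 0.16) without the femur LSD1WT replicate 2 libraries. The fitted log2 fold change was 2.09 for mandible, 1.99 for ligated femur and 2.08 for unligated femur, with an SE of 0.35 in each.

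Ly6a, the stem cell antigen Sca-1, had the largest log2 fold change of all 15425 genes fitted over the 3 cultures. Mandibular LSD1WT libraries held 1.75 and 3.12 CPM, and mandibular LSD1cKO libraries held 58.7 and 101 CPM. Ligated femur gave 4.79 and 12.9 CPM for LSD1WT against 177 and 277 CPM for LSD1cKO, and unligated femur 6.34 and 6.96 CPM against 141 and 187 CPM. The genotypes did not overlap: the highest LSD1WT library, ligated femur replicate 2, stayed below the lowest LSD1cKO library, from the mandible. The log2 fold change was 4.78 (SE 0.30) over the 3 cultures, or 27.4-fold, and 5.12 (SE 0.29) without the femur LSD1WT replicate 2 libraries. By culture it was 5.02 (SE 0.58) for mandible, 4.69 (SE 0.57) for ligated femur and 4.63 (SE 0.57) for unligated femur. In the ligated femur it became 5.65 (SE 0.58) without replicate 2 of LSD1WT. In bulk RNA a change in how many cells express a gene and a change in RNA per cell cannot be told apart, which holds for every member.

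**Figure D1:**
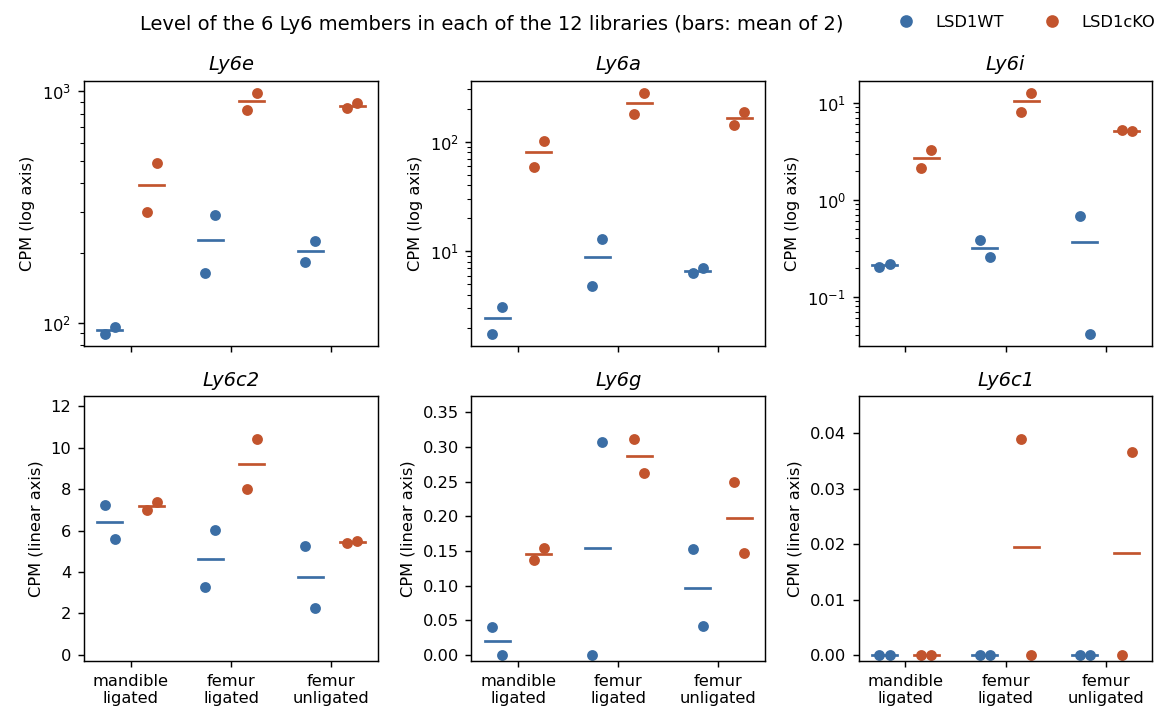
CPM of each member in each library (points) with the mean of the 2 libraries of a condition (bars), by culture and genotype. The upper row has log axes and shows Ly6e, Ly6a and Ly6i, for which no LSD1cKO library falls within the LSD1WT range. The lower row has linear axes and shows Ly6c2, Ly6g and Ly6c1, for which the genotypes overlap or nearly all counts are 0.

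Ly6i, a close relative of Ly6a known from myeloid cells, showed the same separation of genotypes at far lower levels. Mandible LSD1WT libraries had 5 and 6 counts (0.204 and 0.220 CPM) and mandible LSD1cKO libraries 62 and 105 counts (2.13 and 3.25 CPM). Ligated femur had 12 and 5 counts in LSD1WT (0.388 and 0.257 CPM) and 209 and 287 counts in LSD1cKO (8.12 and 12.6 CPM). Unligated femur had 18 and 1 counts in LSD1WT (0.687 and 0.0414 CPM) and 148 and 138 counts in LSD1cKO (5.27 and 5.06 CPM). All 6 LSD1cKO libraries lay above all 6 LSD1WT libraries. The log2 fold change was 4.15 (SE 0.49), or 17.7-fold, over the 3 cultures and 3.76 (SE 0.34) without the femur LSD1WT replicate 2 libraries. In the unligated femur it was 3.79 (SE 0.86). There it rests on the LSD1WT library with 1 count, and ran from 2.91 without that library to 6.87 with only that one for LSD1WT.

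Ly6c2, a monocyte marker, differed far less. Its mandible values overlapped, with 7.22 and 5.58 CPM for LSD1WT and 7.01 and 7.36 CPM for LSD1cKO. Ligated femur held 3.27 and 6.004 CPM for LSD1WT against 8.01 and 10.4 CPM for LSD1cKO. Unligated femur held 5.23 and 2.28 CPM for LSD1WT against 5.38 and 5.50 CPM for LSD1cKO. The femoral LSD1cKO libraries were the higher ones in each case, by a narrow margin in the unligated femur. The log2 fold change was 0.17 (SE 0.44), 0.99 (SE 0.45) and 0.53 (SE 0.44) in the mandible, ligated femur and unligated femur, and 0.56 (SE 0.25) over the 3 cultures. Without the femur LSD1WT replicate 2 libraries it was 1.58 (SE 0.28) for ligated and 0.07 (SE 0.26) for unligated femur, so the femoral values rest on which LSD1WT libraries are used.

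Ly6g, the neutrophil antigen, and Ly6c1, which is close in sequence to Ly6c2, were at or near the limit of detection. Ly6g had 0 to 6 counts in the LSD1WT libraries and 4 to 8 counts in the LSD1cKO libraries. Summed over 6 libraries a genotype this was 12 counts in LSD1WT and 34 in LSD1cKO, a ratio of 2.61 after scaling to library size by TMM. This ratio is a description only and holds no spread between libraries or mice. The ranges met, since ligated femur LSD1WT replicate 2 had 6 counts. Ly6c1 had 0 counts in all LSD1WT libraries and 1 count in each of 2 femoral LSD1cKO libraries, so no difference in Ly6c1 was detectable at this depth.

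Of the 4 fitted members 3 (Ly6a, Ly6e and Ly6i) had every LSD1cKO library above every LSD1WT library over the 3 cultures, against 1.98% of all genes fitted. Within the mandible these 3 did not overlap, against 34.1% of all genes. All 4 did not overlap within ligated femur, against 14.8%, or within unligated femur, against 9.82%. Since the members were chosen on these contrasts, nothing is read from these counts. The plot of log2 fold changes shows the same members with and without the libraries that stood apart.

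**Figure D2:**
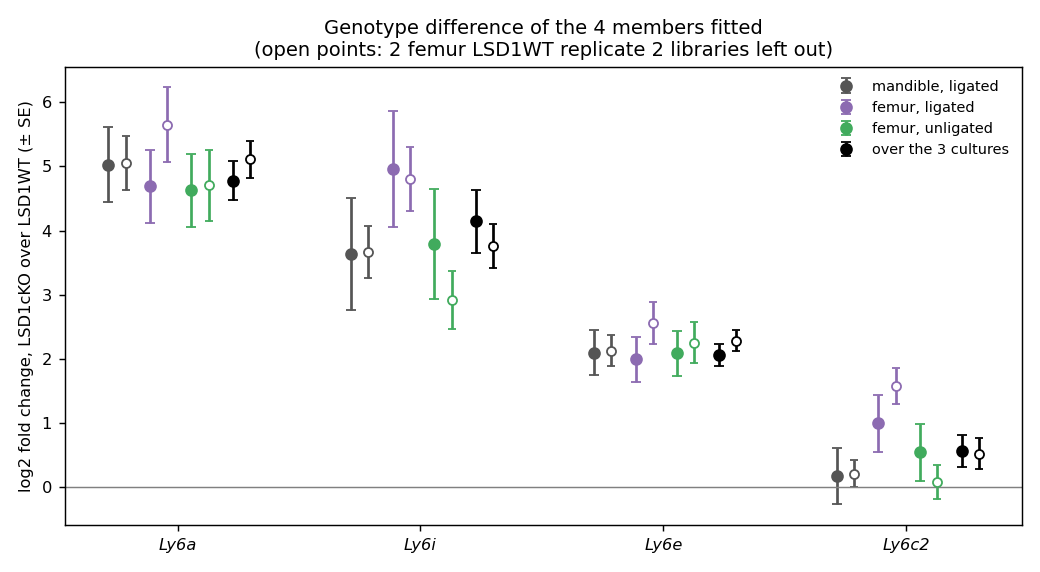
Fitted log2 fold change of LSD1cKO over LSD1WT (y axis, with SE bars) for Ly6a, Ly6i, Ly6e and Ly6c2 in each culture and over the 3 cultures. Filled points use all 12 libraries and open points leave out both femur LSD1WT replicate 2 libraries. Ly6a lies between 4.63 and 5.65, Ly6i between 2.91 and 4.96, Ly6e between 1.99 and 2.55, and Ly6c2 between 0.07 and 1.58.

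Levels of different members can be set side by side per length of their annotated exons (CPM per kilobase, means of 6 libraries). In LSD1WT preosteoclasts the order was Ly6e at 46.2, Ly6a at 4.96, Ly6c2 at 1.80, Ly6i at 0.259, Ly6g at 0.0960 and Ly6c1 at 0. The ranges of Ly6e and Ly6a did not overlap, nor did those of Ly6c2 and Ly6i, whereas Ly6a and Ly6c2 overlapped, as did Ly6i and Ly6g. In LSD1cKO preosteoclasts Ly6e was at 191, Ly6a at 130, Ly6i at 5.25, Ly6c2 at 2.65, Ly6g at 0.223 and Ly6c1 at 0.00751. Ly6i thus came before Ly6c2 there, in 5 of 6 libraries and with overlapping ranges. Ly6e made up 86.4% of the summed level of the 6 members in LSD1WT (84.0 to 89.9%) and 58.7% in LSD1cKO (51.4 to 64.2%). The share of Ly6a was 8.63% (5.21 to 11.8%) in LSD1WT and 38.8% (33.8 to 45.6%) in LSD1cKO. Per kilobase, Ly6a stood at 52.7 to 88.8% of the Ly6e level in the same LSD1cKO library, against 6.16 to 13.8% in LSD1WT. These levels depend on the union of annotated exons, 3784 bases for Ly6e and 1205 for Ly6a. The transcripts present here may be shorter. In CPM the LSD1cKO means were 721 for Ly6e and 157 for Ly6a. Ly6i was at 6.07 CPM and Ly6c2 at 7.27 CPM there, the reverse of their order per kilobase.

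Mandibular and femoral preosteoclasts of ligated mice were compared next. Per the paper the ligatures sat on maxillary molars, so the mandible was not the ligated bone. No mandible library came from unligated mice, so this is a comparison of sites and not of ligature. Ly6a was lower in the mandible than in the femur by a log2 fold change of -1.85 (SE 0.52) in LSD1WT and -1.51 (SE 0.50) in LSD1cKO. For Ly6e the values were -1.30 (SE 0.34) and -1.20 (SE 0.34). Ly6i differed by -0.61 (SE 0.90) in LSD1WT and -1.94 (SE 0.77) in LSD1cKO. In LSD1WT without the femur replicate 2 library, Ly6a differed by -0.93 (SE 0.48), Ly6e by -0.78 (SE 0.28) and Ly6i by -0.82 (SE 0.57). Ly6c2 showed 0.47 (SE 0.44) in LSD1WT, or 1.001 (SE 0.28) without that library, and -0.36 (SE 0.44) in LSD1cKO. All 6 site values of Ly6a, Ly6e and Ly6i thus lay below 0, and both mandibular libraries lay below both femoral ones in each of these cases. Such a lack of overlap was seen for 31.5% of all genes in LSD1WT and 35.0% in LSD1cKO. For Ly6i in LSD1WT it holds in CPM only, since the counts were 5 and 6 in mandible and 12 and 5 in femur. No separation by site is read there.

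The 3 mice with a library from each site gave the same contrast within an animal. Ly6a in the femur was 2.73 times its mandible level in the LSD1WT mouse, and 3.01 and 2.76 times in the LSD1cKO mice. Ly6e gave 1.82 times in LSD1WT and 2.75 and 2.01 times in LSD1cKO, and Ly6i gave 1.90, 3.81 and 3.88 times. Ly6c2 was at 0.452 times its mandible level in the femur of the LSD1WT mouse and at 1.14 and 1.41 times in the LSD1cKO mice.

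The femur of ligated and unligated mice was compared within each genotype. Ly6a differed, ligated over unligated, by a log2 fold change of 0.40 (SE 0.50) in LSD1WT and 0.47 (SE 0.49) in LSD1cKO, and Ly6e by 0.16 (SE 0.34) and 0.06 (SE 0.34). In both genotypes the libraries of these genes overlapped between ligated and unligated mice. Ly6i differed by -0.17 (SE 0.86) in LSD1WT and 1.002 (SE 0.75) in LSD1cKO, and Ly6c2 by 0.30 (SE 0.44) and 0.76 (SE 0.44). The libraries of Ly6i and Ly6c2 overlapped in LSD1WT, but in LSD1cKO both ligated libraries lay above both unligated ones. How many of all genes lacked overlap in this comparison was not taken, so nothing is read from it. For Ly6i the difference between the genotype effects was -1.33 (SE 1.19) for mandible minus ligated femur and 1.17 (SE 1.15) for ligated minus unligated femur. For Ly6a these were 0.34 (SE 0.70) and 0.06 (SE 0.70), for Ly6e 0.10 (SE 0.47) and -0.09 (SE 0.47), and for Ly6c2 -0.83 (SE 0.62) and 0.46 (SE 0.63). Several turned in direction when 1 library was left out, so no direction is read from them. The Ly6i value of 1.17 became -1.83 without unligated femur LSD1WT replicate 1 and 2.13 without replicate 2, and the Ly6a value of 0.34 ran from -0.54 without ligated femur LSD1WT replicate 2 to 0.83 without replicate 1. Without both femur LSD1WT replicate 2 libraries the Ly6c2 values were -1.38 (SE 0.35) and 1.51 (SE 0.38), those of Ly6i -1.14 (SE 0.67) and 1.89 (SE 0.64), and those of Ly6a -0.60 (SE 0.60) and 0.95 (SE 0.64). In LSD1WT alone the direction of ligated against unligated femur also turned for each of the 4 members with single libraries left out, with Ly6a from -0.47 to 0.93. Leaving out the femur LSD1WT replicate 2 libraries moved the median of the 4 members between ligated and unligated LSD1WT femur from 0.23 to -0.59.

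All members lie in one cluster of Ly6 genes on chromosome 15, and their neighbours were looked at after the member values were known, in the gene order of RefSeq. The genes with non-overlapping genotypes lay close together. The run began at Ly6m, a Ly6 gene of unsettled function, and went on through the pseudogene Gm6610, the long non-coding RNA gene Gm39556, Ly6e, Ly6i and the pseudogene Gm8000 to Ly6a. Gm28068, a long non-coding RNA gene that starts between Ly6e and Ly6i and whose interval covers Ly6i and Ly6a, had 0 to 1 counts in LSD1WT and 0 to 3 in LSD1cKO. Gm6610 had 0 counts in all 6 LSD1WT libraries and 2 to 12 in the LSD1cKO libraries. Gm8000 likewise had 0 counts in LSD1WT and 1 to 6 in LSD1cKO. Gm39556 went from 4 to 11 counts in LSD1WT to 25 to 45 counts in LSD1cKO, a log2 fold change of 1.80 (SE 0.25). Whether reads were counted by strand is not given in the sources used here, so reads of overlapping or near-identical genes in this run cannot be told apart.

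Beyond Ly6a in the same cluster the genotypes overlapped. Ly6c1 and the pseudogene Gm5960 had at most 3 counts in any library. Ly6a2 (ENSMUSG00000121499) had 3 to 25 counts in LSD1WT and 12 to 27 counts in LSD1cKO, a log2 fold change of 0.19 (SE 0.41). Ly6g2, Ly6f, Ly6l and Ly6h had 0 counts in all 12 libraries. Of 41 rows between Psca and Gpihbp1, 16 were at 0 throughout, 8 had all LSD1cKO libraries above all LSD1WT libraries, and 0 had them all below. Among all genes fitted, 1.98% had all LSD1cKO libraries above. The 8 include Ly6a, Ly6e and Ly6i, which were chosen on this contrast. They also include Gm6610 and Gm8000, which were not fitted and whose lowest LSD1cKO counts lie within what a count of 0 allows. Nothing is therefore read from this count. Outside the run from Ly6m to Ly6a, the 8 included only Them6, at a log2 fold change of 0.76 (SE 0.18).

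**Figure D3:**
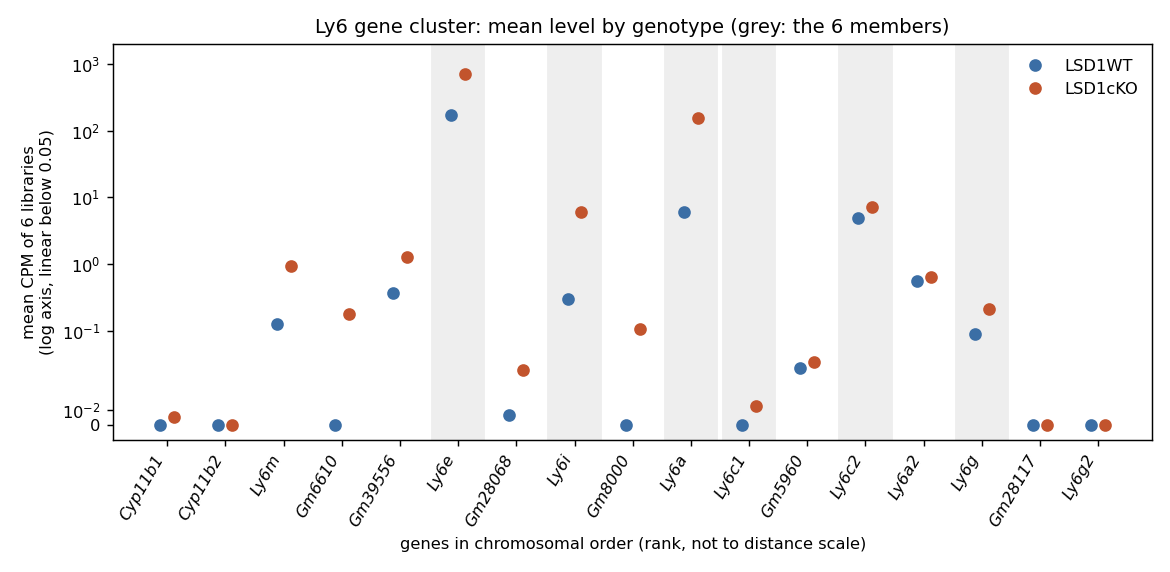
Mean CPM of 6 libraries a genotype (y axis, log above 0.05 and linear below) for the genes around the 6 members (grey bands), in chromosomal order by rank. From Ly6m to Ly6a the LSD1cKO points lie above the LSD1WT points, while from Ly6c1 to Ly6g they lie close together or near 0.

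Reads of related genes may not be assignable to one gene. Of the stretches of 50 bases in GENCODE vM21 transcripts, 32.8% of those of Ly6c1, 19.0% of Ly6a, 14.5% of Ly6c2, 4.76% of Ly6i, 0.448% of Ly6g and 0% of Ly6e occur in another gene too. Ly6c1 shares 21.5% with Ly6c2 and 11.1% with Ly6a, so the low Ly6c1 counts and the split between Ly6c1 and Ly6c2 are uncertain. Summing Ly6c1 with Ly6c2 gave a log2 fold change of 0.57 over the 3 cultures, and summing Ly6a with Ly6i gave 4.75. These sums could move little, since Ly6c1 held 2 counts in all against 1925 for Ly6c2, and Ly6i 996 against 25776 for Ly6a. They do not settle how reads that fit several genes were assigned.

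The rest of the Ly6/uPAR family was examined as 42 further genes, among them uPAR (Plaur), the complement inhibitors Cd59a and Cd59b and the neutrophil antigen Cd177. Of these 20 had 0 counts in every library, 12 had at most 4 counts in any library, and 10 were tested. Over the 3 cultures 1 of the 10, Ly6m, was higher in LSD1cKO at an adjusted p under 0.05 and 0 were lower, against 3.00% of all genes called higher and 0.532% called lower, 3.53% in all. Ly6m had 1, 1, 4, 2, 6 and 5 counts in the mandible, ligated femur and unligated femur LSD1WT libraries, and 22, 19, 33, 29, 19 and 31 counts in the LSD1cKO libraries. The genotypes did not overlap in any culture. Its log2 fold change was 2.97 (SE 0.35), with an adjusted p of 0.00214 (edgeR quasi-likelihood test, Benjamini-Hochberg), and the adjusted p ran from 7.42e-09 to 0.0121 over 22 alternatives, none above 0.05. Within single cultures the log2 fold change of Ly6m was 3.96 (SE 0.57) for mandible, 3.39 (SE 0.49) for ligated femur and 2.03 (SE 0.46) for unligated femur. Their edgeR adjusted p values were 0.119, 0.0770 and 0.510. Within single cultures edgeR called 0 genes of all tested in mandible and in unligated femur and 1 gene (0.00648%), Kdm1a, in ligated femur.

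The 9 others tested did not pass over the 3 cultures, with log2 fold changes from -0.36 to 0.99. Plaur, the urokinase receptor, had means of 35.3 ± 16.9 CPM (SD, n = 6) for LSD1WT and 42.4 ± 19.8 CPM for LSD1cKO, a log2 fold change of 0.20 (SE 0.29). Cd59a was at 21.6 ± 12.3 CPM and 19.1 ± 3.09 CPM, and Pate4 at 12.4 ± 11.1 CPM and 10.3 ± 4.78 CPM. Cd177 had means of 1.51 ± 0.577 CPM in LSD1WT and 2.57 ± 1.33 CPM in LSD1cKO, a log2 fold change of 0.68 (SE 0.29) that missed the threshold at an edgeR adjusted p of 0.279. Cd59b stayed near 1.17 ± 0.661 CPM and 1.27 ± 0.0938 CPM. Without the femur LSD1WT replicate 2 libraries, where 24.2% of all genes were called (14.4% higher and 9.75% lower), 4 of the 10 were called over the 3 cultures. Ly6m (3.02, SE 0.41) and Plaur (0.76, SE 0.10) were then higher in LSD1cKO, and Cd59a (-0.57, SE 0.13) and Pate4 (-0.995, SE 0.24) were lower, with edgeR adjusted p of 0.000547, 0.000551, 0.00974 and 0.0125.

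**Figure D4:**
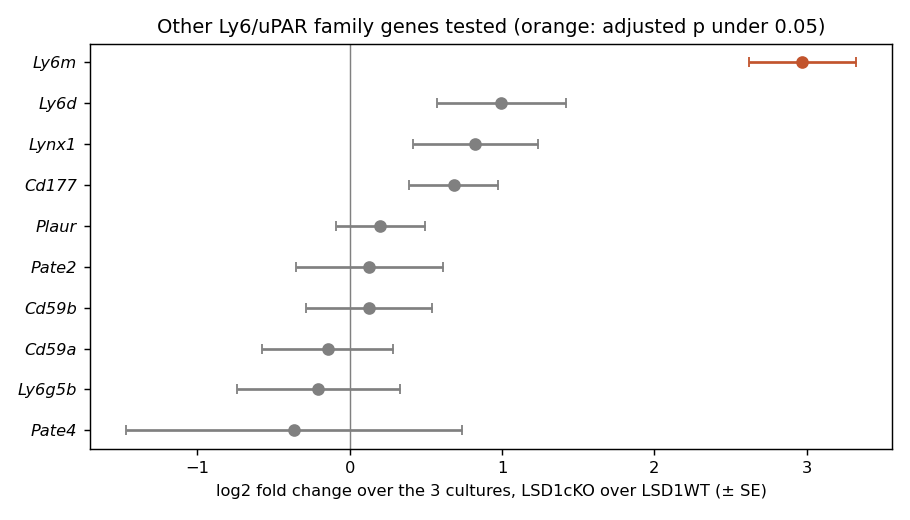
Log2 fold change of LSD1cKO over LSD1WT over the 3 cultures (x axis, with SE bars) for the 10 other Ly6/uPAR family genes tested, all 12 libraries. Ly6m, at 2.97, is the only one past an adjusted p of 0.05 (orange), and the other 9 lie between -0.36 and 0.99.

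Enzymes that build and attach the GPI anchor, on which Ly6 proteins depend to reach the cell surface, were read as a further list. Of 29 such genes, all tested, 1 was higher and 0 were lower in LSD1cKO over the 3 cultures, against 3.00% and 0.532% of all genes, and their median log2 fold change was -0.08 beside -0.06 for all genes. The gene that passed was Pigz, which adds a side mannose to the anchor, at 1.04 (SE 0.21; edgeR adjusted p 0.0226). Without the femur LSD1WT replicate 2 libraries, 4 were called higher and 2 lower, against 14.4% and 9.75% of all genes.

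Because Ly6a and Ly6e are interferon-inducible, 46 interferon response genes, none of them a member, were read in the same libraries. Over the 3 cultures 32 of the 46 were higher in LSD1cKO and 0 were lower, against 3.00% and 0.532% of all genes, with a median log2 fold change of 1.88 beside -0.06 for all genes. The lowest p values belonged to Oasl1 (3.01, SE 0.36), Rigi (1.88, SE 0.26), Oas1g (2.75, SE 0.41) and Usp18 (2.74, SE 0.42), all sensors, effectors or feedback genes of the interferon response, with edgeR adjusted p of 0.00246, 0.00461, 0.00608 and 0.00646. The count of 32 fell to 11 when mandible LSD1WT replicate 3 was taken as femur, and ran from 20 to 38 when 1 library was left out. Within each of the 3 cultures 0 of the 46 passed in edgeR, with 30, 32 and 27 at an unadjusted p under 0.05 in mandible, ligated femur and unligated femur, against 4.82%, 6.88% and 4.95% of all genes. DESeq2 called 7, 15 and 5, but its share over all genes was not taken, so nothing is read from these counts. Without the femur LSD1WT replicate 2 libraries edgeR called 46 of 46 over the 3 cultures, all higher, against 14.4% of all genes called higher. It called 25, 45 and 11 within the single cultures, against 5.85%, 9.35% and 2.47% of all genes.

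The interferon genes and the members were then set side by side by library. The median log2 CPM of the 46 genes ran from 1.68 to 5.88 in LSD1WT and from 3.17 to 7.34 in LSD1cKO, so the genotypes overlapped across cultures. Within each culture both LSD1cKO libraries had higher medians than both LSD1WT libraries. These were 3.17 and 4.08 against 1.68 and 1.72 in the mandible, 7.14 and 7.34 against 3.84 and 5.88 in the ligated femur, and 6.39 and 6.44 against 4.64 and 5.13 for unligated mice. Ly6a, on the same scale, was at 5.88 and 6.65 against 0.87 and 1.68 in the mandible, 7.47 and 8.12 against 2.28 and 3.70 in the ligated femur, and 7.14 and 7.55 against 2.68 and 2.81 for unligated mice. The interferon genes and Ly6a thus separated the genotypes in the same direction in each culture. Mandibular cells had lower interferon medians than femoral cells in both genotypes, as they had lower Ly6a and Ly6e. The fitted median log2 fold change of the 46 genes, mandible against femur, was -3.60 in LSD1WT and -3.43 in LSD1cKO. None was called in edgeR, with 45 and 46 at an unadjusted p under 0.05 (19.8% and 15.0% of all genes). DESeq2 called 43 and 44, again with no share over all genes to set beside them. How far the interferon response bears on the member levels was not tested.

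**Figure D5:**
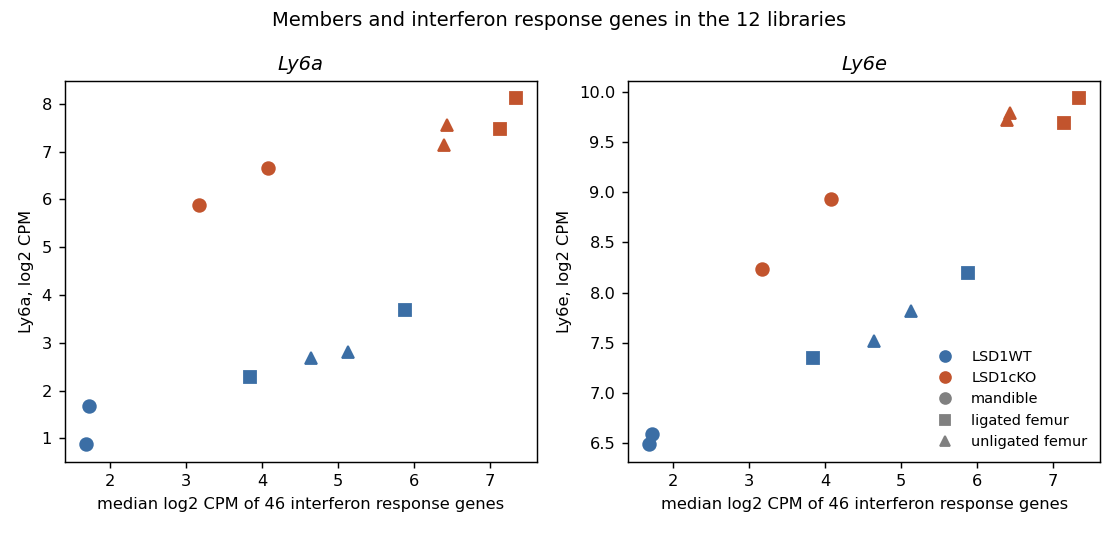
Log2 CPM of Ly6a (left) and Ly6e (right) against the median log2 CPM of 46 interferon response genes in the 12 libraries, with colour for genotype and marker shape for culture. The LSD1WT and LSD1cKO libraries overlap along the x axis, from 3.17 to 5.88, and do not overlap along the y axis, and within each culture the LSD1cKO libraries lie higher on both axes.

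Since Ly6 genes mark several blood cells, marker lists of other cells were read beside them. Stem and progenitor markers summed to 16.4 to 43.3 CPM in LSD1WT and 22.9 to 92.4 CPM in LSD1cKO, with 1 of 9 tested (Procr, 1.49, SE 0.28) called over the 3 cultures. The 12 monocyte markers summed to 103 to 1210 CPM in LSD1WT and 212 to 606 CPM in LSD1cKO, and 2 were called, both higher (Ms4a4c and Vcan). The 15 neutrophil markers summed to 140 to 495 CPM and 169 to 394 CPM, and 1 was called, Cebpe, again higher. Over the 3 cultures 3.00% of all genes were called higher and 0.532% lower. No cell type is read from single calls in these short lists. Without the femur LSD1WT replicate 2 libraries the LSD1WT ranges became 18.6 to 20.8 CPM for stem and progenitor markers and 103 to 172 CPM for monocyte markers, both below every LSD1cKO library, as was the case for Ly6a. The stem and progenitor overlap came from unligated femur LSD1WT replicate 2 alone. Such sums rest mostly on the abundant genes, and Cd34 alone reached 70.6 CPM in LSD1cKO. With all libraries, 5 of the 9 stem and progenitor markers tested were higher in LSD1cKO over the 3 cultures and 4 were lower. Of the 12 monocyte markers 9 were higher and 3 were lower. Neutrophil markers without the femur LSD1WT replicate 2 libraries were at 140 to 191 CPM in LSD1WT and still overlapped with LSD1cKO. The part of such cells in the member levels was not tested.

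Lymphoid and stromal markers were scarce. T and NK cell markers summed to 4.76 to 18.3 CPM in LSD1WT and 4.11 to 16.7 CPM in LSD1cKO, and 5 of the 11, Cd3e, Cd3d and Cd3g among them, had 3 counts or fewer everywhere. Lck was the 1 of 3 tested that was called over the 3 cultures. For this list and the following ones, the share called over all genes was 3.53%. B and plasma cell markers summed to 117 to 381 CPM and 171 to 352 CPM with 0 of 5 called. Endothelial and stromal markers summed to 8.05 to 44.4 CPM and 9.61 to 47.0 CPM, and 1 of 8 was called (Kdr). Plasmacytoid dendritic cell markers summed to 36.9 to 224 CPM and 47.5 to 81.5 CPM with 0 of 5 called, and to 36.9 to 45.4 CPM in LSD1WT without the femur replicate 2 libraries, below every LSD1cKO library. Most of this sum was Tcf4, at 44.7 to 75.7 CPM in LSD1cKO. Macrophage markers summed to 2143 to 14277 CPM in LSD1WT and 1825 to 4967 CPM in LSD1cKO, and osteoclast markers to 900 to 43892 CPM and 13527 to 31823 CPM. Without the femur LSD1WT replicate 2 libraries the LSD1WT sums were 2143 to 3690 CPM and 28476 to 43892 CPM, and both lists still overlapped across cultures. Within each culture, however, the LSD1cKO osteoclast sums then lay below those of LSD1WT. They were 16460 and 16528 CPM against 28610 and 28476 CPM in the mandible. In the femur, with LSD1WT replicate 1 alone, they were 22480 and 19736 against 43892 CPM (ligated) and 31823 and 13527 against 40310.5 CPM (unligated). With all 12 libraries edgeR called 0 of the 11 macrophage and 0 of the 15 osteoclast markers over the 3 cultures.

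The genes whose log2 CPM was most like that of a member over the 12 libraries were then listed as a description, since all libraries share the genotype contrast. For Ly6a these were Sirpb1c (Pearson r 0.983, Spearman rho 0.972), its neighbour Gm39556 (0.971 and 0.979) and Ly6e (0.971 and 0.993). For Ly6e they were Sigirr, an inhibitor of interleukin-1 receptor signalling (0.980 and 0.972), and the signal regulatory genes Sirpb1c (0.979 and 0.958) and Sirpb1a (0.976 and 0.951). For Ly6i they were Lilra6 (0.984 and 0.965), the GPI-anchored ectoenzyme Bst1 (0.981 and 0.993) and the long non-coding RNA Bvht (0.981 and 0.937). Without the 2 libraries farthest from the median of the member, these r values stayed between 0.956 and 0.991. The genes most like Ly6c2 were Gm10180, Gm14567 and Rps9, with Pearson r from 0.874 to 0.887, which went to between 0.616 and 0.815 without the 2 farthest libraries.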

How the data were processed

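Bulk RNA-seq of 12 preosteoclast libraries was analysed from the raw read counts per gene that the authors deposited. Per the labels the authors used HISAT2 2.1.0, featureCounts and GRCm39, and no normalization had been applied. Samples were grouped by title, genotype and ligature. Counts were analysed with edgeR 4.0.16 in R 4.3.3 (filterByExpr, TMM scaling, quasi-likelihood test, 1 coefficient for each of 6 conditions). A model of culture and genotype gave the difference over the 3 cultures. P values were adjusted over 15425 genes (Benjamini-Hochberg) and held to 0.05. SE is the log2 fold change divided by the root of F. CPM were scaled by TMM, and log2 CPM took 2 as prior count. The members, gene lists and comparisons were chosen with earlier results of these data known. No replicate origin beyond the mouse is given, so p values measure the spread between these libraries. Replicates 1 and 2 of LSD1cKO mandible and ligated femur came from the same mice by the labels, and their differences correlated at 0.026 between sites. With the mouse as a random block, the consensus correlation was 0.519 in the model of culture and genotype. It was -0.391 in the model of 6 conditions. Libraries of the same mouse are thus not shown to be independent. Named genes were the members, the called and the 5 most abundant other family genes, and up to 4 called genes of each list. Exon lengths came from GENCODE vM21 and promoters from RefSeq GRCm38.p6. Alternatives were DESeq2 1.42.0, other scalings, filters and labels, omitted libraries, summed paralogs and a replicate or mouse block (limma 3.58.1). Leaving out both femur LSD1WT replicate 2 libraries was chosen after seeing the data. The models were tested on simulated counts.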

Additional observations from a re-analysis of the deposited data

Results flagged for a closer look

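Cd177 in the 6 LSD1WT libraries had 1 library far from the others: ligated femur replicate 2, at 2.67 CPM against 1.16 to 1.47 CPM, with a gap of 0.723 of the whole range on the log2 scale. About 1 in 20 such groups is picked out by chance, and this library is among those with low osteoclast markers.

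Ly6m was lower in both ligated than in both unligated LSD1WT femur libraries (4 and 2 counts against 6 and 5, or 0.129 and 0.103 CPM against 0.229 and 0.207 CPM). In LSD1cKO both ligated libraries were higher (1.28 and 1.27 CPM against 0.677 and 1.14 CPM). The log2 fold changes differed by -1.36 between LSD1WT and LSD1cKO. A test of this difference did not pass (edgeR quasi-likelihood interaction, unadjusted p 0.0734, adjusted p 1.00).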

How the results depend on the processing

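The median log2 fold change of the 4 members moved by less than the spread between replicates (SD 0.43) in 218 of 229 alternatives. With no filter beyond 1 count all 6 members entered, and it was 2.23 in the ligated femur, 2.22 in the unligated femur and 1.98 over the 3 cultures, from 3.34, 2.94 and 3.10. Without both femur LSD1WT replicate 2 libraries it became -0.59 for ligature in LSD1WT femur, -0.87 for the genotype effect in mandible minus ligated femur and 1.23 for that in ligated minus unligated femur, from 0.23, -0.36 and 0.26. Leaving out 1 library at a time gave -0.26 to 0.69 for ligature in LSD1WT, -0.81 to -0.048 and -0.13 to 0.93 for the differences between genotype effects, and -1.79 to -1.06 for mandible against femur in LSD1cKO. The extremes came without ligated femur LSD1WT replicate 2 (-0.26, -0.81 and 0.93), unligated femur LSD1WT replicate 1 (0.69) and mandible LSD1cKO replicate 2 (-1.79).

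Over the 3 cultures, the other Ly6/uPAR genes called rose from 1 to 4 without both femur LSD1WT replicate 2 libraries, and ran from 1 to 2 with 1 library left out (2 without unligated femur LSD1WT replicate 2). Within cultures, from 0, DESeq2 called 1 for mandible and 1 for ligated femur, the 4 mandible libraries alone gave 4, and leaving out both replicate 2 libraries gave 2, 2 and 1 in mandible, ligated femur and unligated femur. Of the interferon response genes, 32 called became 11 with mandible LSD1WT replicate 3 as femur, 21 with both mandible LSD1WT libraries summed and 20 to 38 with 1 library left out (20 without ligated femur LSD1cKO replicate 2 or mandible LSD1cKO replicate 2, 21 without either mandible LSD1WT library). GPI anchor genes, from 1, were 2 with DESeq2, 0 with mandible LSD1WT replicate 3 as femur, 6 without both replicate 2 libraries and 0 to 2 with 1 library left out. A replicate block in edgeR gave 0 GPI anchor genes, and the mouse as a random block in limma voom gave 21 interferon genes; the block changed no other of these calls. The cause was not tested in any of these. Beside the main fit, the share of all genes called was taken only without both replicate 2 libraries. The other counts have no such share beside them.

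With 2 libraries a condition, an arm with 1 left out is assumed to vary like the other conditions. Ly6g and Ly6c1 are limited by depth. The mandible LSD1WT pair, the library with conflicting labels and both femur libraries with low osteoclast markers are all LSD1WT, so their effects and the genotype cannot be told apart in these cultures.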
